A study of Rattus norvegicus with 9 samples.

Results

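Serum miRNAs with high registry numbers were examined in a rat model of Parkinson's disease. They are the rows of the count matrix named miR- with a number of 1000 or more, apart from 1 miRNA left out by rule. The matrix held 567 rows, of which 65 met the rule. Rows with the same 9 counts were taken once, which left 57 distinct count patterns, called high-numbered miRNAs here. Of the 8 rows removed in this way, 6 repeated a row without any count, 1 (miR-3561-3p) matched miR-3065-3p at 2 counts in all, and miR-1843b-5p matched miR-1843a-5p at 164 counts. The lowest number was that of miR-1188-5p and the highest that of miR-6332. miR-935, the row with the highest number below the limit, had no count in any library, and neither had miR-1188-5p.

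All animals were adult male Wistar rats of wild-type genotype. The early group (EPD) received rotenone, which blocks complex I of the respiratory chain, by daily intraperitoneal injection of 2.0 mg per kg for 10 days. The late group (LPD) received it for more than 40 days, to a terminal stage, and the rest served as controls (Control). Each group had 3 libraries, numbered as in their titles. The treatment label names the model in all 9 samples, and what Control animals were given is not stated. The libraries held 1108167 to 1539557 counts in Control, 1136537 to 1668807 in EPD and 132609 to 305019 in LPD. The LPD libraries stood apart. Their number of miRNAs with a count was that of an estimated 4279 to 10755 molecules on the assumption that LPD serum had the average miRNA profile of the other groups, so 1 molecule stood for 12.3 to 49.1 counts, against 1.01 to 2.74 counts in the other libraries. Control 2 stood apart by 3 liver miRNAs, whose summed level of 696465 CPM compared with at most 56344 CPM in any other library. CPM are counts scaled to library size (TMM). Red cell, platelet and liver miRNAs expected in serum were present in all 9 libraries, and of the 11 source markers only the muscle miRNA miR-133a-3p was at 0 in a library, LPD 2.

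An miRNA is a short RNA cut from a hairpin precursor, usually by Drosha with its partner Dgcr8 in the nucleus and then by Dicer. One strand, the 5p or the 3p arm, is loaded into an Argonaute protein and pairs with target mRNAs mainly through its seed, bases 2 to 8. Numbers were given in order of registration, so high numbers belong mostly to miRNAs that were found late by deep sequencing and are scarce. Some of these entries come from hairpins in other small RNAs, such as H/ACA small nucleolar and Cajal body RNAs, and others lie on the DNA strand opposite a known miRNA. In serum, miRNAs circulate in vesicles and in complexes with proteins, and part of them comes from blood cells.

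The mature sequences of the 13 rows behind the 12 high-numbered miRNAs that could be tested are given here, since the results turn on them and several share letters with another RNA. They come from RefSeq (build GRCr8), which held 58 of the 65 rows. Capitals mark the seed, and the sequences run 5′ to 3′.
miR-3473: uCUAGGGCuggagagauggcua
miR-1839-5p: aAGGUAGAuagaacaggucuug
miR-3559-5p: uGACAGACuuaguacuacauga
miR-3559-3p: aUGUAGUAcugagucugucgug
miR-1306-5p: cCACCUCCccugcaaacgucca
miR-3068-5p: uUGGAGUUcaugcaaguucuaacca
miR-3068-3p: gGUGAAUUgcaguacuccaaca
miR-6216: gAUACACAgaggcaggaggagaa
miR-1843a-5p: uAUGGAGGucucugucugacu
miR-1843b-5p: aUGGAGGUcucugucugacuuag
miR-1843a-3p: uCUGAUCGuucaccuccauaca
miR-3590-3p: uAGCACAAugugaaaagagcuc
miR-3065-5p: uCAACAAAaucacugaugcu
No 2 of these 13 share a seed. Of the 58 rows with a sequence, 54 shared their seed with no other row of the matrix. The median GC content of the 58 was 52.5%, against 47.6% for the other rows with a sequence, and the median length was 22 bases in both.

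miR-1843a-5p and miR-1843b-5p had the same 9 counts. They share a run of 20 bases shifted by 1 position, although they lie on different chromosomes (chr6:104955400-104955420, minus strand, and chr13:74085003-74085025, plus strand). Reads inside the shared run cannot be told apart, and the sources used here do not give how such reads were assigned. The 3p arms differ at position 12, counted from the 5′ end (A12C, copy a first), and had 201 and 10 counts. miR-3473 (chr13:42051730-42051751, plus strand) carries repeated letters: at least 1 stretch of 16 of its bases, on either strand, occurred in 0.284% of 33469 RefSeq promoter windows of 300 bases. For the other 12 sequences above this share was 0%. Its counts may therefore include reads from other loci, and this was not tested.

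RefSeq names the genes of 3 of these hairpins as H/ACA RNAs: Scarna15 for miR-1839 (5p arm at chr1:144893859-144893880, plus strand), Snora58 for miR-3068 (chr6:112811918-112811942 for 5p and chr6:112811880-112811901 for 3p, minus strand) and Scarna3 for miR-1843a. Of the 46 hairpin loci with a sequence, 24 lay inside a gene on the same strand, by gene models of GRCr8. Among them were miR-1306 in Dgcr8, miR-3068 in Alkbh1, miR-1843a in Dcaf5, miR-1843b in Cop1 and miR-1224 in Vwa5b2. The hairpins of 6 loci overlapped another miRNA on the opposite strand: miR-3590 (Mir130a), miR-3065 (Mir338), miR-3074 (Mir24-1), miR-3120 (Mir214), miR-3544 (Mir337) and miR-3549 (Mir193).

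High-numbered miRNAs made up a small share of the counts. It was 0.145, 0.0940 and 0.133% in the Control libraries, 0.113, 0.142 and 0.135% in EPD and 0.180, 0.229 and 0.234% in LPD. Each LPD share lay above all 6 others, and the Wilson 95% intervals of LPD (lowest bound 0.165%) lay above those of the other libraries (highest bound 0.153%). Such intervals take each count as an independent draw. In LPD 1 estimated molecule stood for 12.3 to 49.1 counts, so on that estimate the LPD intervals are too narrow. They do not establish that the shares differ. Control and EPD overlapped (0.124 ± 0.0268% and 0.130 ± 0.0152%, SD, n = 3 each).

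Most of these counts came from few miRNAs. miR-3473 held 37.0% of all their counts over the 9 libraries, miR-1839-5p 19.0%, miR-3559-5p 12.6%, miR-1306-5p 9.12% and miR-3068-5p 5.66%. With miR-6216 the first 6 reached 86.8%. In the whole matrix miR-3473 ranked 97th and miR-6216 199th by total counts. miR-3473 was the highest in 8 libraries, with 25.5 to 47.6% of the counts of the set, and miR-1839-5p in Control 1.

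**Figure D1:**
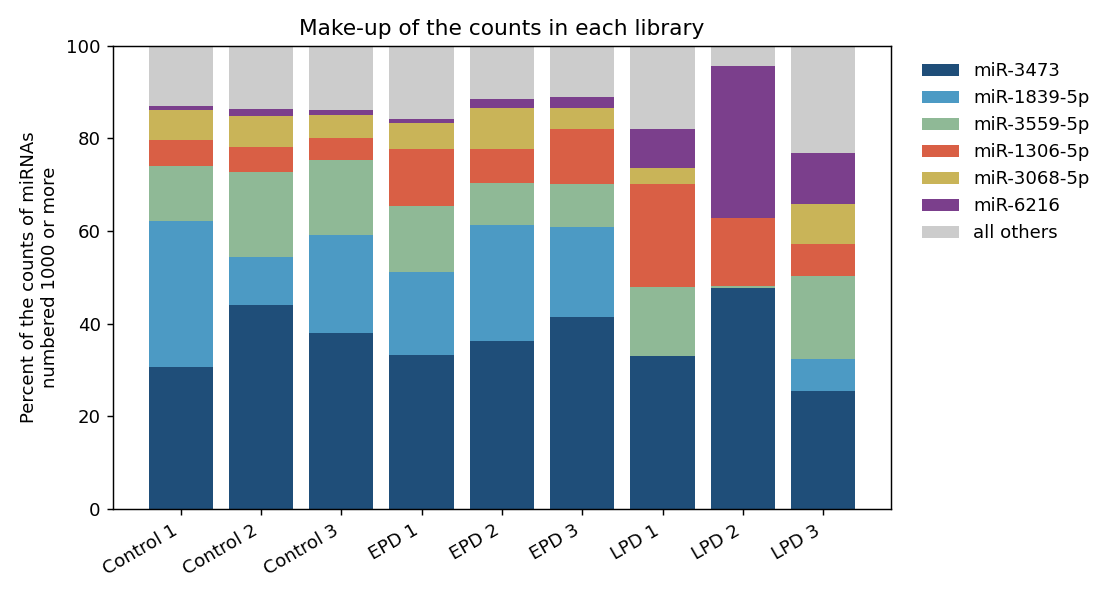
Percent of the counts of high-numbered miRNAs (y axis) taken by each of the 6 with the most counts and by all others, in each of the 9 libraries (x axis). miR-6216 took 0.932 to 2.26% in Control and EPD and 8.58, 32.8 and 11% in LPD, while miR-1839-5p was at 0 in LPD 1 and LPD 2.

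Fewer of these miRNAs were seen in LPD. With at least 1 count, 33, 34 and 38 of the 57 were seen in Control, 38, 39 and 28 in EPD and 7, 5 and 11 in LPD. With at least 10 counts the numbers were 12, 12 and 16 in Control, 14, 11 and 15 in EPD and 7, 4 and 9 in LPD. Every LPD library lay below all others in both measures. Of the 57, 45 (78.9%) had no count in any LPD library, against 240 of 470 (51.1%) of the other count patterns. Those others were also seen less in LPD, at 37.4, 31.5 and 39.4% with a count, against 81.5 to 92.6% in Control and EPD. The 57 were scarcer to begin with: 63.2% had under 10 counts in every library, against 24.9% of the others. None of the 57 was seen in LPD only.

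**Figure D2:**
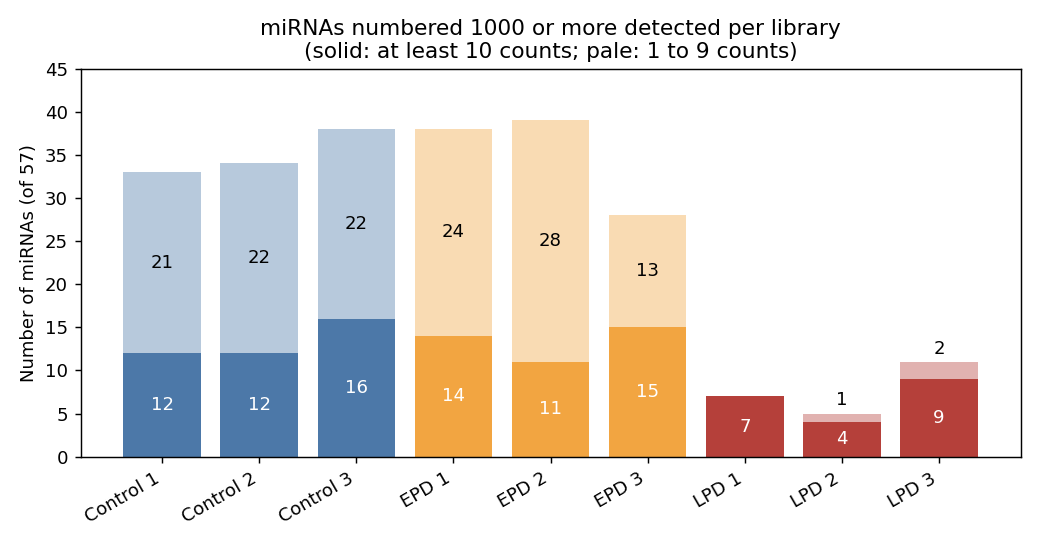
Number of high-numbered miRNAs (y axis, of 57) with at least 10 counts (solid) and with 1 to 9 counts (pale) in each library (x axis). Low counts were rare in LPD, with 0, 1 and 2 miRNAs at 1 to 9 counts against 13 to 28 in the other libraries.

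Depth differed between the groups as well. When each library was brought to the 132609 counts of LPD 3 by the hypergeometric expectation, 3.30 to 4.51 of these miRNAs kept at least 10 counts in Control, 4.28 to 4.87 in EPD and 3.95 to 9 in LPD. The ranges of LPD and the other groups then overlapped, and the order of the means turned, from Control at 3.84 ± 0.612 over EPD at 4.57 ± 0.296 up to LPD at 6.38 ± 2.53 (SD, n = 3 each). Equal totals were not equal numbers of molecules. At full totals 1 estimated molecule stood for 12.3 to 49.1 counts in LPD and 1.01 to 2.74 elsewhere. Fewer molecules could thus reach 10 counts in LPD, and the turned order does not show that more miRNAs were present there. In LPD the 23 counts above 0 ran from 3 to 229, with a median of 1.70 estimated molecules and a highest value of 6.41 (miR-3473 in LPD 3). All high-numbered miRNAs together stood for 14.9, 9.81 and 25.1 estimated molecules in LPD 1, 2 and 3. Of the 23 counts, 7 came out under 1 estimated molecule, the lowest at 0.0612 (miR-3559-5p in LPD 2), which a detected miRNA cannot be. The estimate is therefore rough for single miRNAs, and a loss of miRNAs from LPD serum would lower it as well.

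Only 12 of the 57 (21.1%) had enough counts to be tested, against 280 of 470 (59.6%) of the other count patterns. The filter asks, in at least 3 libraries, for the share of the library total that 10 counts have at the median library size. In the smaller LPD libraries fewer than 10 counts reach it. For the 12 the median of the mean level was 57.3 CPM, against 131 CPM in the other tested miRNAs. Groups were compared with edgeR's quasi-likelihood test over 294 rows, with Benjamini-Hochberg adjustment and an adjusted p under 0.05 as the call. Nothing names separate animals for the libraries, so p-values cover only library-to-library spread, which may be technical. The deposited column headers number the EPD and LPD libraries alike, each after a T. Whether equal numbers mark the same animals is not stated, and the test took the groups as independent.

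After 10 days of rotenone none of the 12 passed the test. The background was 0% of the 294 rows called (0 rows), and an unadjusted p under 0.05 was reached by 0 of the 12 and 11 of the 294. DESeq2 and limma-voom also called 0 of the 12. In the edgeR test the adjusted p of each was at least 0.995, and with DESeq2 that of miR-1306-5p was 0.746. Their median log2 fold change was 0.01, with -0.05 over all tested miRNAs. The groups did not overlap for miR-1306-5p, which was higher in EPD, and for miR-3559-3p, which was lower. Over all tested rows 12.9% did not overlap, 4.76% higher and 8.16% lower in EPD.

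After more than 40 days 4 of the 12 passed in LPD against Control, 2 higher (miR-6216 and miR-1306-5p) and 2 lower (miR-3068-3p and miR-3065-5p). Over all rows 37.1% were called, 4.42% higher and 32.7% lower. Of the 12, 6 did not overlap between the groups, 2 higher and 4 lower. Over all tested rows this was 48.3%, with 6.46% higher and 41.8% lower. Overlap was judged on TMM-scaled levels, and as shares of library totals miR-1839-5p, counted here as lower, overlapped between LPD and Control. In LPD against EPD 4 of the 12 passed, miR-6216 higher and miR-3068-3p, miR-3065-5p and miR-3590-3p lower. The background there was 36.7% called, 4.08% higher and 32.7% lower, and 5 of the 12 did not overlap, 1 higher and 4 lower. Over all tested rows 52.4% did not overlap, 6.8% higher and 45.6% lower. Over the 9 tested miRNAs with a count in LPD the median log2 fold change was 0.68 against Control and 1.06 against EPD. It was -0.46 and -0.28 over the 224 tested miRNAs with a count in LPD. These medians leave out the miRNAs without a count in LPD. With those included as fitted, the medians were 0.32 and 0.60 over the 12, and -1.04 and -0.92 over all 294 rows. With those set at 3 counts per LPD library, the medians were 0.56 and 0.60 over the 12, and -0.60 and -0.37 over the 294. Both comparisons share the LPD libraries.

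**Figure D3:**
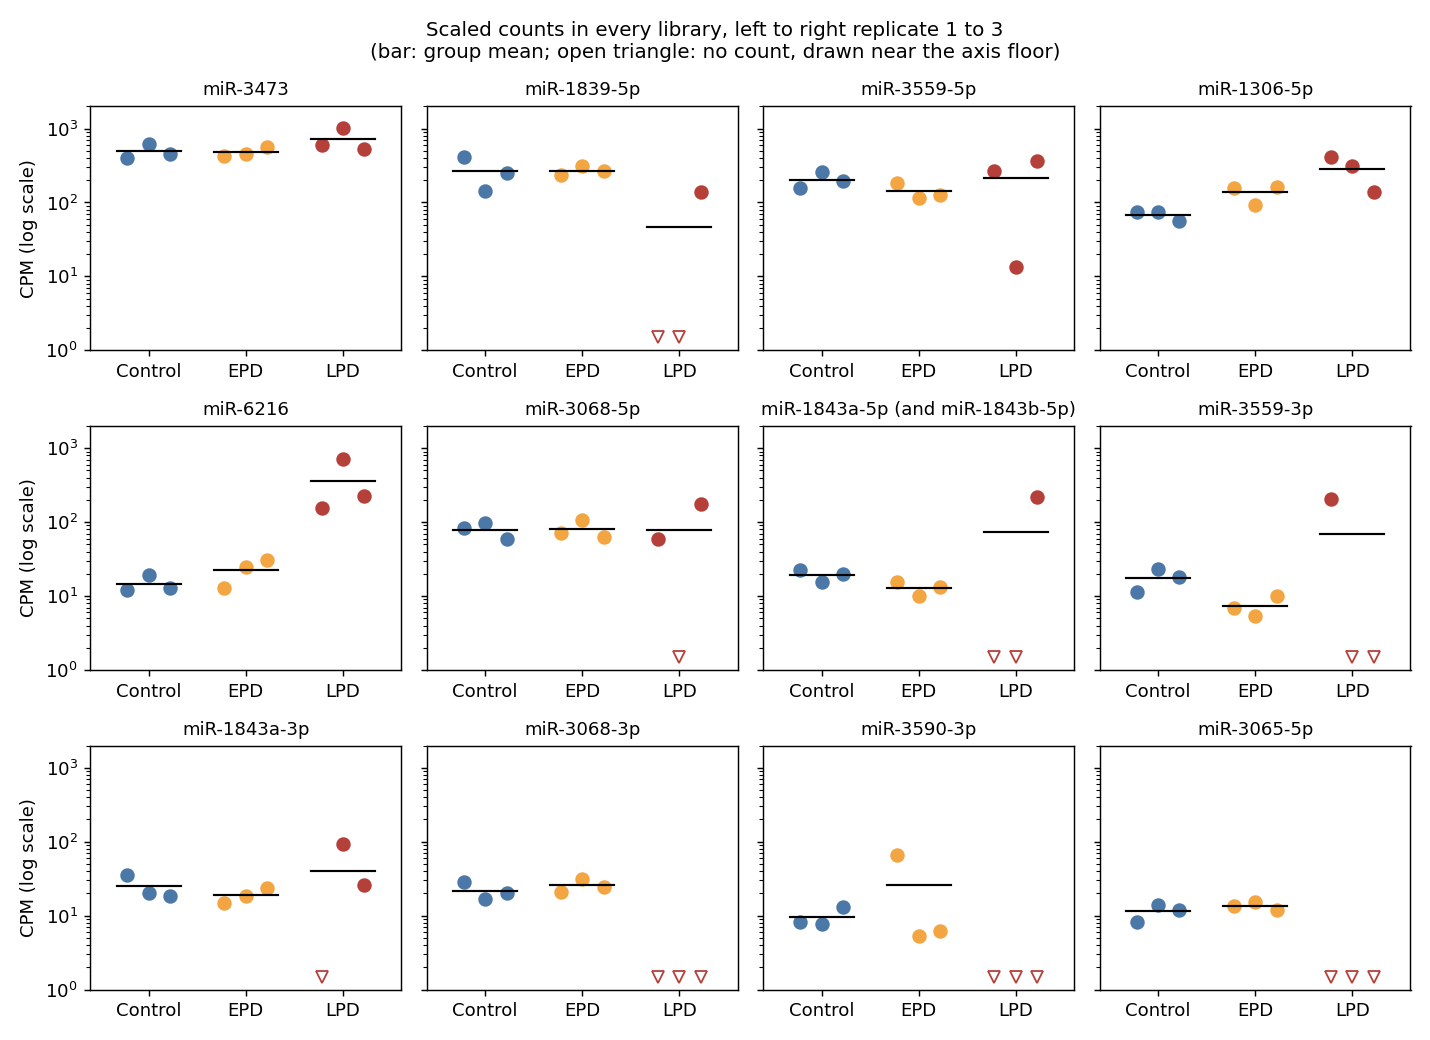
Level in CPM (y axis, log scale) of the 12 tested high-numbered miRNAs in every library, by group (x axis), with the group mean as a bar and open triangles at the foot of the axis for libraries without a count. The LPD points of miR-6216 lie at 156 to 711 CPM, above every other library, and 3 miRNAs have no count in LPD.

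miR-6216 (chr3:65165595-65165617, minus strand, inside no annotated gene) had the largest log2 fold change of the 9 tested miRNAs with counts in LPD. It had 12.2, 19.2 and 12.7 CPM in Control, 13.0, 24.7 and 30.8 CPM in EPD and 156, 711 and 224 CPM in LPD. All LPD libraries lay above the rest, and Control and EPD overlapped. In raw counts the LPD libraries held 47, 158 and 34, against 15 to 49 elsewhere, and these stood for 1.28, 3.22 and 2.76 estimated molecules. The log2 fold change in LPD was 4.62 against Control (SE 0.92, edgeR adjusted p = 0.00531, n = 3 each) and 3.99 against EPD (SE 0.89, adjusted p = 0.00829). It passed in all 18 alternatives of both comparisons, with log2 fold changes of 3.71 to 5.29 and 2.99 to 4.57. Against Control it was 5.29 without LPD 1 and 3.71 without LPD 2. In LPD 1 estimated molecule stood for 81.3 to 221 CPM, above the level in every Control and EPD library, so the size of the rise is not well determined.

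miR-1306-5p (chr11:96213968-96213989, plus strand) lies in the transcript of Dgcr8, whose product recognises primary miRNA hairpins. Its level was 74.9, 75.4 and 56.0 CPM in Control, 159, 91.7 and 163 CPM in EPD and 407, 315 and 138 CPM in LPD. Both rotenone groups lay above Control in every library, and LPD 3 fell within the range of EPD. The LPD counts stood for 3.35, 1.43 and 1.70 estimated molecules. There 1 estimated molecule stood for 81.3 to 221 CPM, above every Control level, so the size of a rise is not well determined. The rise in LPD over Control was 2.06 log2 (SE 0.68, edgeR adjusted p = 0.0385). EPD against Control gave 1.01 (SE 0.66, adjusted p = 0.995) and LPD against EPD 1.06 (SE 0.66, adjusted p = 0.251). The call in LPD against Control was lost in 10 of 18 alternatives, at adjusted p of 0.0534 to 0.180, among them any left-out Control library (0.0979, 0.0534 and 0.129 for Control 1, 2 and 3), EPD 2 (0.0637), EPD 3 (0.0653), the replicate block (0.126) and counts per molecule (0.0852). Its 3p arm was scarce, with 31 counts over all libraries against 1074, and had no count in LPD.

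Most red cell markers were also higher in LPD than in Control. Of 4 such markers 3 (miR-486, miR-144-3p and miR-16-5p) lay above every Control library in all LPD libraries, and none was at 0 in any library. The summed level of the 4 was 84512 to 169054 CPM in Control, 153163 to 394536 CPM in EPD and 235822 to 372634 CPM in LPD. The highest sum was that of EPD 1, where miR-6216 stood at 13.0 CPM and miR-1306-5p at 159 CPM. miR-16-5p gave 351656 CPM of that sum. The remaining marker, miR-451-5p, overlapped, at 466 to 799 CPM in Control and 756 to 1530 CPM in LPD. In LPD 1, 2 and 3 miR-486 stood at 47259, 51689 and 18948 CPM and miR-144-3p at 374, 585 and 297 CPM. Like miR-6216, these 2 were highest in LPD 2, while miR-16-5p was highest in LPD 1 and miR-451-5p in LPD 3. The myeloid miR-223-3p also lay above every Control library in all LPD libraries, at 61446, 51235 and 35997 CPM against at most 35042 CPM. The part of these markers in the result was not tested.

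**Figure D4:**
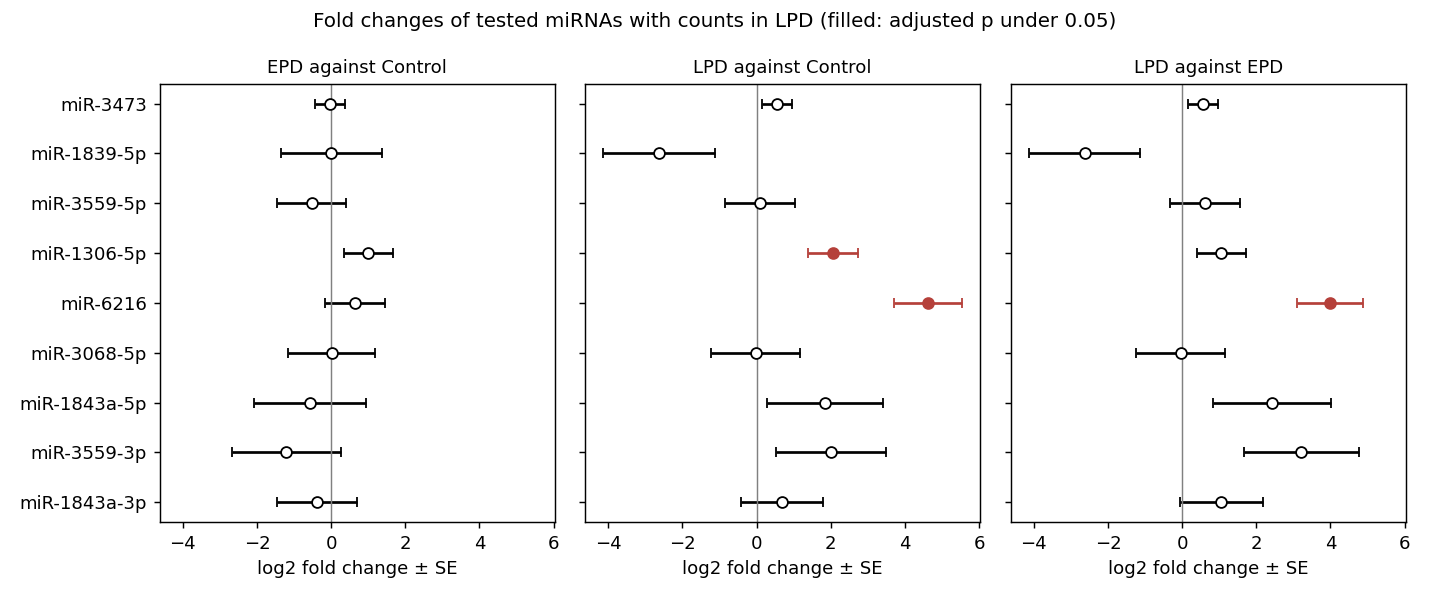
log2 fold change with SE (x axis) of the 9 tested high-numbered miRNAs that had counts in LPD (y axis), for the 3 pairs of groups, with filled points for an adjusted p under 0.05. Filled are miR-6216 in both LPD comparisons and miR-1306-5p in LPD against Control, and no point is filled in EPD against Control.

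Of the 12 tested, 3 had no count in LPD. miR-3068-3p had 28.5, 16.6 and 20.2 CPM in Control and 21.2, 31.6 and 24.5 CPM in EPD, 2 overlapping ranges. Its adjusted p in LPD was 0.00522 against Control and 0.00576 against EPD (edgeR). miR-3065-5p had 8.14, 14.1 and 12.1 CPM in Control and 13.7, 15.4 and 11.9 CPM in EPD, with the same pair of adjusted p. miR-3590-3p had 8.14, 7.66 and 13.3 CPM in Control and 67.0, 5.39 and 6.28 CPM in EPD. It was lower in LPD than in EPD (adjusted p = 0.0377), but its EPD mean of 26.2 ± 35.3 CPM rested on EPD 1, and the call was lost without Control 1, Control 2 or any LPD library (0.0501 to 0.111). Against Control its adjusted p was 0.102.

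No fold is given for these 3. In LPD 3 counts stood for 9.94 to 19.8 CPM, but 3 estimated molecules stood for 244 to 662 CPM, above every level of the 3 miRNAs in Control and EPD. Whether they were lost from LPD serum was not detectable at this depth. Of all other tested miRNAs 65 of 280 (23.2%) had no count in LPD, beside 3 of the 12 (25.0%). On counts per molecule miR-3068-3p had an adjusted p of 0.448 against Control and 0.480 against EPD.

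The opposite-strand pairs differed in which strand was read. miR-3065-5p (chr10:105796345-105796364, plus strand) pairs over 20 bases with miR-338-3p, and miR-3590-3p (chr3:90229282-90229303, plus strand) over 20 bases with miR-130a-5p. The partners are shown with the complementary bases in capitals.
miR-338-3p: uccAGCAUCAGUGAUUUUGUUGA
miR-130a-5p: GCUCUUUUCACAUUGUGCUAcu
miR-338-3p had 139 counts over the 9 libraries and miR-3065-5p had 101. In Control miR-338-3p stood at 17.3 ± 6.16 CPM and miR-3065-5p at 11.4 ± 3.01 CPM (SD, n = 3), in EPD at 15.7 ± 3.37 and 13.7 ± 1.74 CPM, and neither had a count in LPD. miR-3590-3p, with 154 counts, exceeded the 8 counts of miR-130a-5p, while the other arm of that hairpin, miR-130a-3p, had 5476. The 67.0 CPM of miR-3590-3p in EPD 1 had no parallel in miR-130a-3p, which stood at 423 CPM there and at 1103 and 806 CPM in EPD 2 and EPD 3. The remaining opposite-strand miRNAs were nearly absent, with 9 counts for miR-3074, 3 for miR-3120, 2 for miR-3544 and 0 for miR-3549. The strand setting of the authors' counting is not given in the sources used here.

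Among the H/ACA-derived miRNAs, miR-1839-5p was the most abundant. It had 414, 144 and 249 CPM in Control, 232, 312 and 265 CPM in EPD, no count in LPD 1 and LPD 2 and 138 CPM in LPD 3. LPD lay below both other groups in every library, with LPD 3 close to Control 2. The order of these 2 libraries rested on the TMM factor of Control 2 (0.669). As a share of the library total, the 21 counts of LPD 3 (of 132609) exceeded the 113 counts of Control 2 (of 1171056). LPD and Control then overlapped. The log2 fold change in LPD was -2.62 against Control (SE 1.51, edgeR adjusted p = 0.218) and -2.63 against EPD (SE 1.51, adjusted p = 0.220), and so did not pass. It passed in both when LPD 3 was left out (adjusted p = 0.00538 and 0.00483), and against EPD with limma-voom (adjusted p = 0.0448). In LPD 1 and LPD 2, where it had no count, 3 estimated molecules stood for 365 and 662 CPM.

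miR-3068-5p, the more abundant arm of that hairpin, had 83.1, 95.8 and 58.9 CPM in Control, 71.1, 108 and 62.2 CPM in EPD and 59.6, 0 and 178 CPM in LPD. The groups overlapped, and its log2 fold changes were 0.02 in EPD against Control (SE 1.17), -0.02 in LPD against Control (SE 1.2) and -0.04 in LPD against EPD (SE 1.2), with adjusted p of 0.983 to 0.995. The 5p arm took 71.7 to 85.2% of the counts of the hairpin in Control and EPD and all of its 45 counts in LPD.

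miR-1843a-3p had 35.8, 20.4 and 18.5 CPM in Control, 15.0, 18.5 and 23.9 CPM in EPD and 0, 94.5 and 26.4 CPM in LPD. The shared row of miR-1843a-5p and miR-1843b-5p had 22.8, 15.3 and 19.6 CPM in Control, 15.7, 10.0 and 13.2 CPM in EPD and 0, 0 and 218 CPM in LPD. Single LPD libraries were thus high for each, LPD 2 for the 3p arm (0.428 estimated molecules) and LPD 3 for the 5p row (2.68 estimated molecules). Neither passed any test: in LPD against Control the log2 fold changes were 0.68 (SE 1.11, adjusted p = 0.664) for miR-1843a-3p and 1.85 (SE 1.57, adjusted p = 0.394) for the 5p row. In LPD against EPD they were 1.06 (SE 1.12, adjusted p = 0.514) and 2.42 (SE 1.59, adjusted p = 0.279), and in EPD against Control -0.38 (SE 1.07) and -0.57 (SE 1.5). Without LPD 3 no count of the 5p row remained in LPD, and it was then called lower than Control and EPD (edgeR adjusted p = 0.00718 and 0.0108).

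The 5 tested rows of the 3 H/ACA genes, with the 5 counts of miR-1839-3p, took 44.7, 21.0 and 30.9% of the counts of high-numbered miRNAs in Control and 27.6, 38.6 and 28.5% in EPD. In LPD they took 3.28, 4.37 and 27.4%. LPD 1 and LPD 2 lay below the others, and LPD 3 fell within their range. The share of LPD 1 was 18 counts of miR-3068-5p, and that of LPD 2 was 21 counts of miR-1843a-3p. These stood for 0.491 and 0.428 estimated molecules, so a lower share in LPD is not established. The place of LPD 3 rested on the row shared with miR-1843b-5p, which gave 33 of its 85 counts. Without that row, a choice made after seeing the data, LPD 3 stood at 16.8%, below the lowest other library (Control 2, 19.9%). The other high-numbered miRNAs summed to 726, 1111 and 819 CPM in Control, 934, 764 and 974 CPM in EPD and 1756, 2070 and 1483 CPM in LPD.

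miR-3473 was the most abundant of the set. It had 402, 620 and 451 CPM in Control, 428, 451 and 564 CPM in EPD and 600, 1030 and 521 CPM in LPD. The groups overlapped. Its log2 fold change was -0.03 in EPD against Control (SE 0.40, edgeR adjusted p = 0.995), 0.55 in LPD against Control (SE 0.40, adjusted p = 0.336) and 0.58 in LPD against EPD (SE 0.40, adjusted p = 0.312). It was 1 of 4 high-numbered miRNAs with a count in all 9 libraries, beside miR-3559-5p, miR-1306-5p and miR-6216.

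The arms of miR-3559 (5p at chrX:73660193-73660214 and 3p at chrX:73660153-73660174, minus strand) were both measured. miR-3559-5p had 155, 259 and 194 CPM in Control, 182, 114 and 126 CPM in EPD and 268, 13.5 and 369 CPM in LPD, the low value being the 3 counts of LPD 2. miR-3559-3p had 11.4, 23.0 and 17.9 CPM in Control, 6.83, 5.39 and 10.0 CPM in EPD, 205 CPM in LPD 1 and no count in LPD 2 and LPD 3. The 5p arm thus took 91.6 to 96.4% of the hairpin in Control and EPD, but 56.6% in LPD 1. There the 5p arm stood for 2.21 and the 3p arm for 1.69 estimated molecules.

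Neither arm passed. For miR-3559-5p the log2 fold changes were -0.52 in EPD against Control (SE 0.93), 0.09 in LPD against Control (SE 0.93, adjusted p = 0.934) and 0.62 in LPD against EPD (SE 0.94, adjusted p = 0.664). For miR-3559-3p they were -1.21 (SE 1.47, adjusted p = 0.995), 2.01 (SE 1.49, adjusted p = 0.337) and 3.22 (SE 1.56, adjusted p = 0.149). Every EPD library of the 3p arm lay below every Control library. All LPD counts of the 3p arm came from LPD 1. Without LPD 1 it was called lower than Control (edgeR adjusted p = 0.0308), and without LPD 3 higher than EPD (adjusted p = 0.0405).

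Of the 45 high-numbered miRNAs that did not pass the filter, 36 had under 10 counts in every library and 9 reached 10 counts in at least 1. miR-1247-5p, whose gene stands in the imprinted Dlk1-Dio3 region, had 36 counts in LPD 1 and 18 in LPD 3 and at most 3 in any other library. With no filter on low counts it was called higher in LPD than in Control (edgeR adjusted p = 0.0241) and EPD (adjusted p = 0.0180). The call rested on 0.981 estimated molecules in LPD 1 and 1.46 in LPD 3. Among the other untested miRNAs, miR-3064-5p, with no count in LPD, was called lower in LPD than in EPD in that fit (adjusted p = 0.0450). miR-1224, a mirtron cut from a spliced intron, had 0, 1 and 9 counts in Control, 2, 1 and 5 in EPD and none in LPD. miR-3585-3p had its highest count, 16, in Control 2. miR-1188-5p, also of the Dlk1-Dio3 region, had none. Of the 57, 5 were seen in Control only and 8 in EPD only, with at most 5 counts in any library each.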

How the data were processed

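Serum RNA was extracted with a miRNeasy kit and made into QIAseq miRNA libraries, per the labels' protocols. The authors deposited raw counts per mature miRNA, as single files and as 1 matrix, and 0 values differed between them. The submitters' processing notes name mRatBN7.2 as genome build. Whether molecular identifiers were used is not given in the sources used here. From these counts all 567 rows entered 1 fit (R 4.3.3, edgeR 4.0.16, TMM, filterByExpr, robust quasi-likelihood), with Benjamini-Hochberg adjustment over 294 rows. CPM used TMM-scaled library sizes, and standard errors were taken from the fold change and its F value. The molecule number is the one at which sampling the mean Control and EPD profile would detect as many miRNAs as a library did. Alternatives used DESeq2 1.42.0, limma 3.58.1, other scalings, filters and samples, a replicate block, counts per molecule and each library left out. The fit was also run on simulated counts drawn at the real library totals. That simulation set no limit on the number of molecules, so it cannot show how well calls in LPD hold. The text names all 12 tested miRNAs and the untested ones that stand out in a library or belong to a listed class. The members and lists were chosen with earlier results of these data known, and the H/ACA grouping, with its share without the row of miR-1843b-5p, was made after values were seen. Deviations of same-numbered libraries from their group means had correlations of -0.0959 to 0.0826. Of the 9 libraries, 5 had their highest correlation with another group in a library of their own number. Since few estimated molecules set the LPD values, these correlations cannot decide whether equal numbers mark the same animals.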

Additional observations from a re-analysis of the deposited data

Results flagged for a closer look

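In LPD against EPD the difference itself passed edgeR's test for 4 high-numbered miRNAs. The adjusted p was 0.00829 for miR-6216, which was higher, and 0.00576 for miR-3068-3p, 0.00576 for miR-3065-5p and 0.0377 for miR-3590-3p, which had no count in LPD.

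Some miRNAs that did not pass the filter on low counts exceeded every Control library in single libraries. miR-1247-5p stood at 119 CPM in LPD 1 and at 119 CPM in LPD 3, which were 0.981 and 1.46 estimated molecules. miR-6328 reached 65.9 CPM in LPD 3, from 10 counts or 0.811 estimated molecules, and 8.16 CPM in EPD 3. miR-3064-5p reached 10.9 CPM and miR-3558-5p 8.88 CPM in EPD 1. miR-3075 reached 11.6 CPM in EPD 2. miR-1249 stood at 10.0 CPM in EPD 3 and at 46.2 CPM in LPD 3, the latter from 7 counts. With no filter on low counts, edgeR called miR-1247-5p higher in LPD than in Control (adjusted p = 0.0241) and EPD (0.0180) and miR-3064-5p lower in LPD than in EPD (0.0450). The other 4 named here had adjusted p of at least 0.164 in each of the 3 comparisons in that fit.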

How the results depend on the processing

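In EPD against Control 0 of the tested high-numbered miRNAs were called in all 18 alternatives. In LPD against Control 4 were called, 2 among miRNAs with counts in all 9 libraries, 1 with only those 2 groups and 1 on counts per molecule, and 3 to 6 with a library left out. In LPD against EPD 4 were called, and these settings gave 1, 2 and 1, with 3 to 7 when a library was left out (7 without LPD 3). With the replicate block 3 and 4 were called. Over all miRNAs 0 were called in EPD against Control, 1 by DESeq2, 1 with counts in all 9 libraries and 0 to 1 with a library left out. LPD against Control gave 109, then 38, 52 and 31 in the same 3 settings and 93 to 140. LPD against EPD gave 108, then 35, 67 and 29, and 90 to 134. The numbers tested differed as well. With counts in all 9 libraries 4 high-numbered miRNAs and 124 rows were tested, against 12 and 294 in the main fit. On counts per molecule 9 and 263 were tested.

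The number of high-numbered miRNAs with at least 10 counts, 13.3 in Control and in EPD, became 35.0 and 35.0 at 1 count and 3.84 and 4.57 at equal totals. In LPD it was 6.67, then 7.67 and 6.38, so the mean of LPD was the highest at equal totals. Fewer estimated molecules could reach 10 counts in LPD, so this order does not show more miRNAs there. With a library left out it was 12.0 to 14.0 in Control, 12.5 to 14.5 in EPD and 5.5 to 8 in LPD. Without the 10 most abundant miRNAs the share became 0.328, 0.315 and 0.656% in Control, EPD and LPD. With a library left out it was 0.114 to 0.139%, 0.124 to 0.139% and 0.204 to 0.231%.

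With RLE factors the median log2 fold change of all tested miRNAs went from -1.04 to -0.83 in LPD against Control and from -0.92 to -0.64 in LPD against EPD. Signs turned only in miRNAs that had not passed. In EPD against Control miR-1839-5p became -0.021 with DESeq2, -0.021 with library totals and -0.021 with RLE factors. miR-3473 became 0.032 with limma-voom, 0.085 with library totals, 0.11 without the filter, 0.044 with 2 groups, 0.012 when blocked by replicate number and 0.0081 per molecule. In LPD against Control miR-3559-5p became -0.62 with limma-voom and -0.27 with the block. miR-3068-5p became 0.13 with DESeq2, 0.21 with library totals, 0.13 with RLE factors, 0.0057 without the filter, 0.012 with 2 groups and 0.048 on counts per molecule. With limma-voom miR-1843a-3p became -0.24, miR-1843a-5p -1.0 and miR-3559-3p -0.86, and on counts per molecule miR-1843a-3p became -6.83. In LPD against EPD limma-voom gave -0.14 for miR-3559-5p and -0.45 for miR-1843a-5p. miR-3068-5p became 0.12 with DESeq2, 0.062 with library totals, 0.12 with RLE factors and 0.013 with 2 groups, and miR-1843a-3p -6.50 on counts per molecule. The cause was not tested.

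With a library left out, EPD against Control ran from -0.17 to 0.50 for miR-1839-5p, -0.14 to 0.29 for miR-3473, -0.24 to 0.31 for miR-3068-5p, -0.55 to 0.025 for miR-1843a-3p and -0.66 to 1.89 for miR-3590-3p. LPD against Control ran from -0.43 to 0.67 for miR-3559-5p, -1.26 to 0.58 for miR-3068-5p, -1.16 to 1.60 for miR-1843a-3p, -7.33 to 2.47 for miR-1843a-5p and -7.16 to 2.65 for miR-3559-3p. LPD against EPD ran from -1.38 to 0.46 for miR-3068-5p, -0.88 to 1.88 for miR-1843a-3p, -6.86 to 2.94 for miR-1843a-5p and -6.04 to 3.78 for miR-3559-3p. Values near -6 or -7 are those of groups left without a count and are no measure of size.

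Of 605 values under an alternative, 524 kept direction and side of the threshold. The low totals of LPD limit every comparison with that group, and its molecule number is an estimate that assumes the profile of the other groups.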
